A study of Mus musculus with 27 samples.

Results

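Adult-acquired active sites of mouse hematopoietic progenitor cells (HPC) were collected from peak lists of 2 histone marks. A member is an H3K27ac peak of adult HPC that overlaps, by 1 bp or more, an H3K4me1 peak of adult HPC and no H3K4me1 or H3K27ac peak of fetal HPC. Of the 63108 H3K27ac peaks of adult HPC, 4973 met this rule (7.88%, 95% Wilson interval 7.67 to 8.09), among 901169 peaks in the 8 lists of the series. Members were chosen by the presence or absence of called peaks in those 4 HPC lists, so their HPC marks are given as a description. "Acquired" stands for a missing fetal peak call, which is not proof of a missing mark.

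All mice were of the B6 background, and the labels name no other allele and no treatment. Fetal cells came from embryos at E16.5 and adult cells from mice 8 weeks old. Sorted HPC gave 3 libraries for each of H3K27ac and H3K4me1 at each age, and sorted hematopoietic stem cells (HSC) gave 3 fetal and 4 adult H3K4me1 libraries. A further HPC set of 2 fetal and 3 adult libraries is titled H3K27me3, the Polycomb mark, but its mark field says H3K27ac. It is called the second K27 set. The labels do not state the sort gates, so which progenitors the HPC gate takes in is not known here. Each group was deposited as 1 pooled peak list, so no spread between libraries can be measured and no p-value is given. Intervals cover counting error over sites only, and neighbouring sites are not independent. Whether a site is marked in fewer cells or more weakly per cell cannot be told apart.

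H3K4me1 is placed on enhancers, often before they are active, and on the flanks of promoters. H3K27ac is added when an enhancer or promoter is in use. An enhancer that gains both marks at once is usually called de novo, and one that already carried H3K4me1 is called primed. Between fetal life and adulthood the blood-forming system moves from the fetal liver to the bone marrow, and its stem cells go from frequent division to quiescence.

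Because no genome sequence was used here, the sequences that can be shown are promoter windows of RefSeq (GRCm38.p6), from 250 bases before to 50 after a transcription start, in those members that reach a start. The 6 windows below lie wholly inside members and are written 5′ to 3′ on the strand of the gene, with every CG in capitals. The Kif1c and Pak1 windows lie in members among the 10 strongest, and the other windows in weaker members. CpG content was not ordered by strength among these windows. The Atf3 member (fold over background 4.97) was weaker than those of Tnfsf13 (6.95) and Hrh1 (5.04). Kif1c encodes a kinesin motor, and its window at chr11:70700298-70700597 (plus strand) lies in the second strongest member. Pak1 encodes a kinase downstream of Rac and Cdc42 (chr7:97788291-97788590, plus strand). Socs3 encodes a feedback inhibitor of cytokine receptors (chr11:117969317-117969616, minus strand). Atf3 encodes a stress-induced transcription factor (chr1:191183284-191183583, minus strand). Tnfsf13 encodes the B cell survival ligand APRIL (chr11:69685505-69685804, minus strand). Hrh1 encodes a histamine receptor (chr6:114458272-114458571, plus strand). The last 2, chosen after their values were seen, are shown as CpG-poor contrasts.
Kif1c: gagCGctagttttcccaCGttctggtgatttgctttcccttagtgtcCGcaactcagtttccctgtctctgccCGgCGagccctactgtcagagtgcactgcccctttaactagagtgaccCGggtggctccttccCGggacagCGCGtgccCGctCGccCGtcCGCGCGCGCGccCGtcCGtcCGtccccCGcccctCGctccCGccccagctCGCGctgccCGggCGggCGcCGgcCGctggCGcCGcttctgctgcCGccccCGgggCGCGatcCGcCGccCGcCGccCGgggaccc
Pak1: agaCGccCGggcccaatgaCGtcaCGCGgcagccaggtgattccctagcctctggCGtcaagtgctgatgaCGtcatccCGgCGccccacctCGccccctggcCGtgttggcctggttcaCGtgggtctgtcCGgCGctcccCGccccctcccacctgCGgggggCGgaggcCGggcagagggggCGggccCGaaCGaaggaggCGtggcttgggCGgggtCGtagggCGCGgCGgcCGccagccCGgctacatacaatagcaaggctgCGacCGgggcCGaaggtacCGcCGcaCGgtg
Socs3: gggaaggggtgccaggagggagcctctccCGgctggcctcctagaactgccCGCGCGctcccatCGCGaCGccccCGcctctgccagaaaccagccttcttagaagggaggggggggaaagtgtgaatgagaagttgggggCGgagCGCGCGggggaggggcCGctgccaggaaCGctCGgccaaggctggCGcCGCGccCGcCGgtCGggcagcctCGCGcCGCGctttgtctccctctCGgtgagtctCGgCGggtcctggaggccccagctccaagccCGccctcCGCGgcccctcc
Atf3: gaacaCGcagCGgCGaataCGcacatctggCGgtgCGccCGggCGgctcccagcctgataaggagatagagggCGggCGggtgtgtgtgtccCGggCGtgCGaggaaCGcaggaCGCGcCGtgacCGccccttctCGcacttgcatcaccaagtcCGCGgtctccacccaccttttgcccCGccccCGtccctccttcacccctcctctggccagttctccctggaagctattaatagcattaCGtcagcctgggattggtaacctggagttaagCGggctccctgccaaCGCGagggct
Tnfsf13: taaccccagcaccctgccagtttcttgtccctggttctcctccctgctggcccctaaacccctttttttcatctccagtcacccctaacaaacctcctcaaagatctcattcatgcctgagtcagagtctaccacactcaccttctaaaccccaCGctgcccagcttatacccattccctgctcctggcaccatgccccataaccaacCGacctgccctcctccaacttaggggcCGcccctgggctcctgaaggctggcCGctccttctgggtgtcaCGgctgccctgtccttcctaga
Hrh1: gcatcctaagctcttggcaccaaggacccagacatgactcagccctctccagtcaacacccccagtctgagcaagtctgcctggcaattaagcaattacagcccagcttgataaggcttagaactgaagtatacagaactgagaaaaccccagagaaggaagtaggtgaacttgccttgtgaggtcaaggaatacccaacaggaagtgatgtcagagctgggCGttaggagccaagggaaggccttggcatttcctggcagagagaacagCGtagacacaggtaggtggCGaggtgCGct
The Kif1c window held 41 CG pairs, Pak1 35, Socs3 31 and Atf3 27, against 5 for Tnfsf13 and 4 for Hrh1. The ratio of observed to expected CG, in which 1 means no depletion, was 1.06 for Kif1c, 0.877 for Pak1, 0.769 for Socs3 and 0.867 for Atf3. It was 0.250 for Tnfsf13 and 0.196 for Hrh1. Both CpG-poor windows held an AP-1 match (TGANTCA), and Hrh1 also held a CEBP match (TTNNGCAA). Pak1, Socs3 and Atf3 held a kappaB match (GGGA and CC with 4 bases between), and Kif1c held none of the 10 patterns searched.

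Members were weak and narrow beside the rest of the adult H3K27ac list. Their median width was 448 bp and their median fold over background, as the authors' peak caller gave it, was 2.77. Together they covered 2.74 Mb. The other adult H3K27ac sites fell into 3 classes. The 24436 primed sites had H3K4me1 at both ages and no fetal H3K27ac (median width 544 bp, fold 2.91). The 25423 shared sites had adult H3K4me1 and fetal H3K27ac (1652 bp, fold 6.10). The 8276 remaining sites lacked an adult H3K4me1 peak (341 bp, fold 2.56). The adult H3K4me1 peak under a member had a median fold of 3.71, against 5.53 under primed sites and 5.38 under shared sites. Of the members, 3690 (74.2%) had a −log10 q of at least 5 and 1025 (20.6%) were narrower than 300 bp.

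Few strong sites were members. Only 15 of the strongest 10000 adult H3K27ac sites met the rule (0.15%), and 287 of the strongest 20000 (1.44%). When all sites were ranked by −log10 p and cut into 10 bins of equal size, members numbered 5 in the strongest bin (0.0792%) and 779 in the weakest (12.3%).

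Members also lay close to chromatin that fetal HPC had marked. The median distance to the nearest fetal HPC peak of either mark was 653 bp, and 2855 members (57.4%) lay within 1 kb of one. At 2129 members (42.8%) the adult H3K4me1 peak beneath the site reached a fetal H3K4me1 peak elsewhere along its length. At the other 2844 it met none. Those 2844 had narrower H3K4me1 peaks (median 837 bp against 2237 bp) of lower fold (3.12 against 4.77). Just inside the rule, 636 members had a fetal peak within 100 bp and a median fold of 2.77. Just outside it, 736 sites with adult H3K4me1 had 1 to 100 bp covered by fetal peaks and a median fold of 2.73. Fetal HSC H3K4me1 lay over 21.5% of the sites just inside and 43.5% of those just outside. For adult HSC the shares were 67.3% and 73.8%.

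The HSC lists were not used to choose the members, though the same mark in HPC was. Most members had an H3K4me1 peak in adult HSC, and few had one in fetal HSC. An H3K4me1 peak of adult HSC overlapped 3333 of the 4973 members (67.0%, 65.7 to 68.3), and one of fetal HSC overlapped 807 (16.2%, 15.2 to 17.3). The fetal HSC list is the longer one, with 231188 peaks against 143571. At 2618 members (52.6%) only adult HSC had a peak, at 715 (14.4%) both ages did, at 92 (1.85%) only fetal HSC did, and at 1548 (31.1%) neither did. With the fetal HSC list reduced to the length of the adult one the fetal share was 7.34%. It was 38.2% (adult HSC 75.9%) where fetal HPC peaks counted against a site only from 50% of its length. Among primed sites the adult-only state made up 10.3%, and among shared sites 2.67%.

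The other classes gave the scale of these shares. Fetal HSC had H3K4me1 at 85.0% of primed sites and 96.5% of shared sites, and adult HSC at 90.9% and 97.6%. Sites without adult H3K4me1 stood at 14.5% in fetal HSC and 12.52% in adult HSC, so a low fetal HSC share was not particular to members. By the rule, primed sites have fetal HPC H3K4me1 and members lack it, and how far this sets the fetal HSC gap was not tested. The share of members minus that of primed sites was -68.8 percentage points in fetal HSC (Newcombe interval -69.9 to -67.6) and -23.9 points in adult HSC (-25.3 to -22.5). Weighting the primed sites to the strength of the members left these differences at -68.3 and -23.1 points, and weighting them to the widths of the members at -67.7 and -22.4. Where an HSC peak lay over a member, its median fold within the adult HSC list was 3.44, against 4.58 over primed sites. Within the fetal HSC list the values were 2.60 and 3.80.

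**Figure D1:**
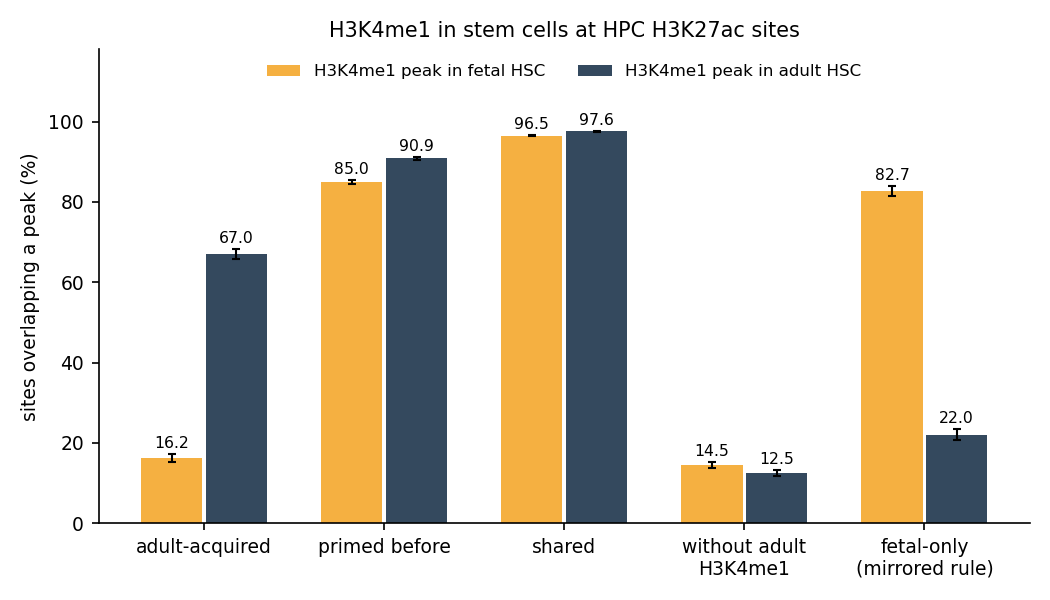
Share of HPC H3K27ac sites (%) that overlap an H3K4me1 peak of fetal HSC (orange) or adult HSC (dark blue), for 4 classes of adult sites and the mirrored fetal class, with 95% Wilson intervals over sites. Adult-acquired sites stand at 16.2% and 67.0%, and fetal-only sites at 82.7% and 22.0%.

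The mirrored rule gave the opposite picture. Of the 50858 H3K27ac peaks of fetal HPC, 3370 (6.63%) overlapped fetal H3K4me1 and no adult HPC peak of either mark. Fetal HSC had H3K4me1 at 2788 of them (82.7%, 81.4 to 84.0) and adult HSC at 740 (22.0%, 20.6 to 23.4). So at sites of either age-restricted class, the HSC list of the same age held most of the H3K4me1 peaks. Both rules ask for HPC H3K4me1 at that age and none at the other. The mirrored class therefore repeats that choice and is not independent evidence.

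The adult HSC share was higher at stronger members. It was 80.0% of the 5 members in the strongest bin of all sites, 87.8% of the 49 in the next and 88.9% of the 180 in the third. In the weakest bin it was 59.8% of 779 members. The fetal HSC share was 2 of 5, 26.5% and 17.2% in the same 3 strongest bins, and stayed between 15% and 18.9% in the bins below. The 2 highest of these fetal values rest on 5 and 49 members. Primed sites had the same trend in adult HSC, from 100% of 15 in the strongest bin to 85.3% of 2920 in the weakest.

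**Figure D2:**
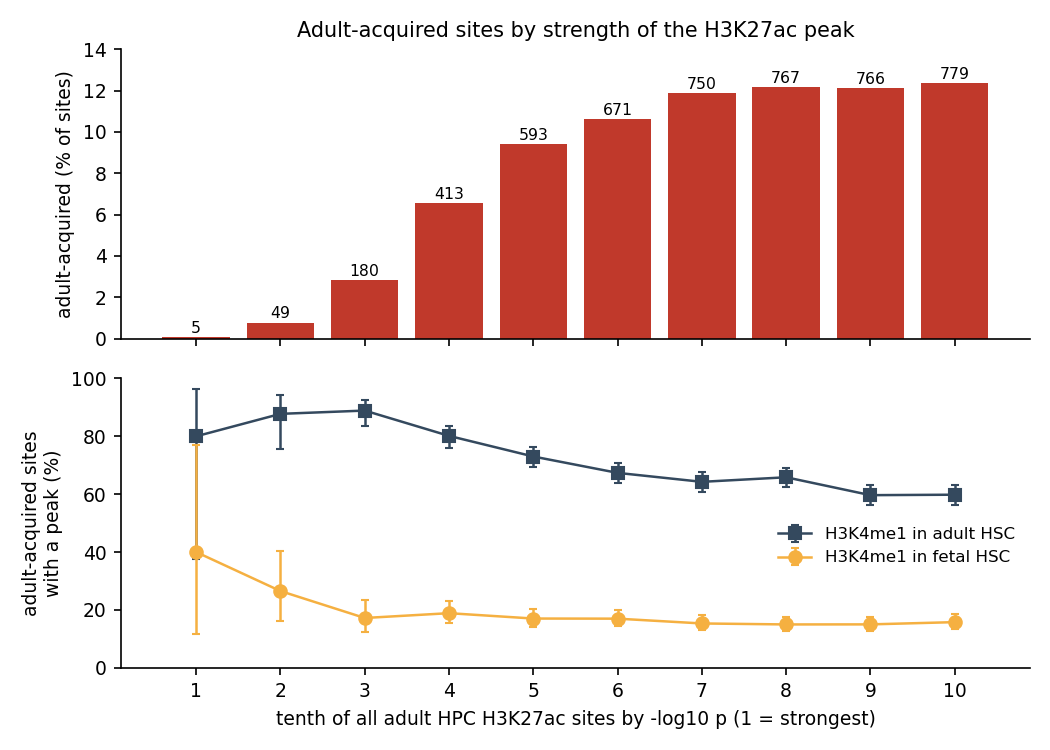
Upper panel, share of all adult HPC H3K27ac sites that are adult-acquired (%), by bin of −log10 p with 1 the strongest and the number of members above each bar. Lower panel, share of those members (%) with an H3K4me1 peak in adult HSC (squares) and fetal HSC (circles), with 95% Wilson intervals; the adult HSC share runs from 88.9% in the third bin to 59.8% in the weakest.

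The label "enhancers" fitted most members by position, less so the strongest ones. A transcription start of the RefSeq table, which has no entries for chromosome 18 and is not complete, was covered by 344 of 4814 members (7.15%). Primed sites covered one in 4.19% of cases and shared sites in 31.9%. Another 3088 members (64.1%) lay more than 10 kb from every start in the table. By gene body, 2988 of all members (60.1%) lay inside a coding gene and 331 (6.66%) had none within 100 kb. Among the 100 strongest members 47 covered a start (47.0%, 37.5 to 56.7), among the 500 strongest 153 did (30.6%), and among the 500 weakest 12 did (2.40%).

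Most of the 10 strongest members lay at starts of genes with varied roles. The highest fold, 16.0, lay over H2-Q6, a class I gene of the major histocompatibility complex (chr17:35424678-35425968), with adult HSC H3K4me1 of fold 6.44. H2-Q genes are near-identical copies, so reads there may be placed on the wrong copy, and the same holds for the member 9289 bp from H2-Q4 (fold 11.8). The next member, of fold 13.7, covered the shared start region of Inca1, a cell cycle inhibitor that binds cyclin A1, and Kif1c (chr11:70699821-70701208). It had adult HSC H3K4me1 of fold 3.90 and no fetal HSC peak. A member of fold 12.4 covered the start of the noncoding gene 6530402F18Rik beside Ntng2, a netrin-like adhesion protein (chr2:29251341-29253933). Ralgps1, a Ral exchange factor, followed with fold 11.9. Cpne2, a copine, held the widest member, 5241 bp inside the gene at chr8:94540062-94545302 with fold 10.3. Bend4 had fold 9.65 and Pak1 8.94 at their starts. Among these 10 strongest members, 6 covered a start.

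Start-covering members differed from the rest in 2 readouts that the rule did not use. They were also stronger (median fold 3.62 against 2.77) and wider (median 771 bp against 433 bp), and the part of strength and width in these differences was not tested. Adult HSC H3K4me1 lay over 292 of the 344 (84.9%), against 2941 of 4470 other members (65.8%). Fetal HSC H3K4me1 lay over 57 (16.6%), close to the 16.2% of the others. A fetal peak of the second K27 set lay within 1 kb of 79 of the 344 (23%, 18.8 to 27.7), against 155 of the 4470 (3.47%). For adult peaks of that set the counts were 23 (6.69%) and 48 (1.07%). The fetal list of that set covered 41.3 Mb with 54339 peaks, and the adult list 26.6 Mb with 54293. The part of this in the gap between fetal and adult shares was not tested.

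The second K27 set rarely touched H3K27ac. Only 17 members (0.342%) overlapped one of its fetal peaks and 2 (0.0402%) one of its adult peaks. Shared sites overlapped its fetal peaks at 0.216%. In its neighbourhood the classes differed. A fetal peak lay within 1 kb of 242 members (4.87%, 4.30 to 5.50), against 1.34% of primed, 0.920% of shared sites and 1.01% of sites without adult H3K4me1. Adult peaks lay within 1 kb of 73 members (1.47%), against 0.307% of primed sites.

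At gene starts the gap was wider. Of 7851 start-covering shared sites 1.85% had a fetal second K27 peak within 1 kb, as did 11.4% of 996 primed ones, so members were higher by 21.1 points (17.0 to 25.9) and 11.5 points (6.87 to 16.6). With CpG-rich starts alone, meaning a CG ratio above 0.6 in the window, the share was 33.0% of 215 members, 18.8% of 447 primed and 2.13% of 6018 shared sites. Without such a start it was 6.20% of 129 members and 5.46% of 549 primed sites. Aplp2, an amyloid precursor-like protein, had a start-covering member of fold 8.37 with peaks of that set within 1 kb at both ages. Inca1, Pak1 and Dennd5b had one at the fetal age only. The start-covering member of Arntl, the clock gene Bmal1, had fold 4.19 and second K27 peaks at both ages.

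**Figure D3:**
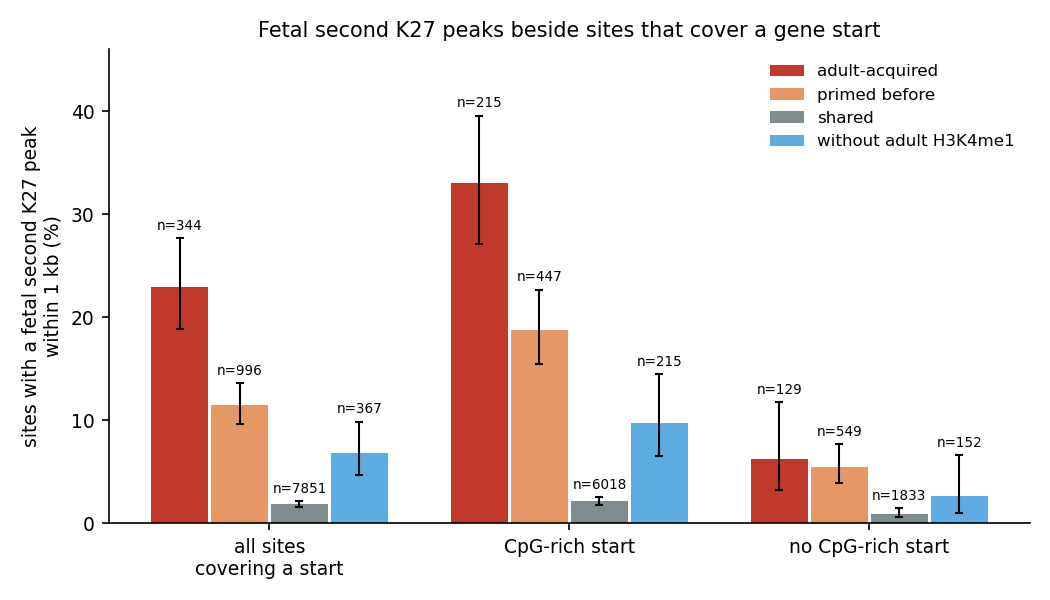
Share of adult HPC H3K27ac sites covering a transcription start (%) that have a fetal peak of the second K27 set within 1 kb, by class and by CpG content of the start, with 95% Wilson intervals and the number of sites (n). Adult-acquired sites stand at 23% of all starts and 33.0% of CpG-rich starts, above the other 3 classes in both.

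Promoter windows wholly inside members were rich in G and C. There were 179 such windows of 170 genes, with a median GC content of 67.0%, against 61.7% for 10253 windows in shared sites, 60.7% for 817 in primed sites and 52.7% for all 32817 windows. The CG ratio was above 0.6 in 130 of the 179 (72.6%, 65.7 to 78.6), in 76.8% of shared and in 50.6% of primed windows. The kappaB pattern occurred in 34.1% of member windows (27.5 to 41.3), in 28.5% of primed (25.5 to 31.7), in 26.6% of shared and in 20.7% of all windows, searched on both strands. AP-1 occurred in 9.50% of member, 7.96% of primed, 4.55% of shared and 7.81% of all windows. The E-box CAGCTG occurred in 17.3%, 21.9%, 13.4% and 16.3% of the same windows. For all 3 patterns the intervals of member and primed windows overlapped. The CEBP pattern occurred in 11 member windows (6.15%), in 9.3% of primed, 7.71% of shared and 10.8% of all windows. The PU.1 pattern GAGGAAGT occurred in 3 member windows (1.68%), in 2.69% of primed, 3.55% of shared and 3.20% of all windows. The RUNX pattern TGTGGTT occurred in 4 member windows (2.23%), in 6.0% of primed, 3.78% of shared and 5.27% of all windows. For CEBP, PU.1 and RUNX the member interval overlapped those of primed, shared and all windows. The erythroid pattern AGATAAG occurred in 2 of the 179 member windows, an interferon element in 4, a glucocorticoid element in 5 and the CEBP palindrome TTGCGCAA in 0. Patterns rich in G and C are found more often in such windows, and their counts were not adjusted for that.

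Genes were assigned to members by the nearest coding gene within 100 kb, which took in 4642 members. Of 21887 coding genes, 2885 had at least 1 member (13.2%), or 20.7% of the 13910 genes with any adult H3K27ac site. Over all sites with a gene, 7.79% were members, and the shares of gene lists below are set beside that value. A site's nearest gene need not be the gene it regulates.

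Transcription factors of granulocytes and monocytes held 22 members among 153 sites (14.4%, 9.69 to 20.8), at 7 of 14 genes. Irf8, which directs monocyte and dendritic cell fate, had 7 of 29 sites as members, with folds of 1.89 to 3.97. Of these, 5 lay in one run from chr8:120784830 to chr8:120789786, between 28135 and 32294 bp from the gene. Adult HSC H3K4me1 lay over 2 of the 7 and fetal HSC H3K4me1 over 1. Cebpa, the factor that opens the granulocyte-monocyte path, had 4 of 18. The strongest lay over the gene itself at chr7:35119091-35120772, with fold 6.81, and its H3K4me1 peak of fold 7.39 carried on into chromatin marked in fetal HPC. Cebpb, needed for emergency granulopoiesis, had 5 members between 54887 and 79259 bp from the gene, 4 of them with adult HSC H3K4me1. Within 10 kb of the genes only 3 members of this list were left. The effector genes of the same cells, such as Csf1r and Ccr2, held 4 members among 61 sites (6.56%).

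Antigen presentation genes held 9 members among 46 sites (19.6%, 10.7 to 33.2). Nlrc5, the activator of class I genes, had 3, and Ciita, the activator of class II genes, had 3 of its 4 sites. H2-Ab1, a class II chain, had 2 with folds of 3.90 and 2.91, and Tap2, a peptide transporter, had 1. Adult HSC H3K4me1 lay over 8 of the 9 and fetal HSC H3K4me1 over 1. The 3 Ciita members lay between 25483 and 27033 bp from the nearest fetal HPC peak. Genes of the type I interferon response held 5 members among 163 sites (3.07%), the strongest at Irf1, with fold 4.11, and at Rsad2, with fold 3.62.

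B cell genes held 8 members among 34 sites (23.5%, 12.4 to 40.0), and most of these lacked H3K4me1 in HSC. Igll1 and Vpreb1 encode the surrogate light chain of the pre-B cell receptor. Igll1 had 2 members of 3 sites, of folds 3.48 and 3.37, the latter over its start, and the lone site of Vpreb1 was a member of fold 2.84. Neither gene's members had H3K4me1 in HSC of either age. Vpreb3, which is expressed with them, had 2 members of 2 sites, both with adult HSC H3K4me1. Blk, a kinase of the B cell receptor, had 2 of 7, and Ebf1, the factor that sets B cell identity, 1 of 4. Inside their bodies Cd79a, Ms4a1 and Pax5 each had 1 adult H3K27ac site that was not a member, so not every B cell gene took part.

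The heavy chain locus of immunoglobulin, examined after its members had been seen, went the same way. Between its first and last annotated gene segments (chr12:113256204-116009954) lay 132 adult H3K27ac sites, of which 47 were members (35.6%, 28.0 to 44.1), 46 primed and 18 shared. Member folds ran from 2.02 to 6.88, with a median of 2.81, and the strongest lay over the variable segment Ighv1-69 (chr12:115623222-115623946). Adult HSC H3K4me1 lay over 4 of the 47 (8.51%, 3.36 to 19.9) and fetal HSC H3K4me1 over 0, which allows up to 7.56% by the Wilson interval. At the 46 primed sites of the locus, adult HSC H3K4me1 lay over 27 (58.7%, 44.3 to 71.7) and fetal HSC H3K4me1 over 3 (6.52%, 2.24 to 17.5). A low fetal HSC share was thus not particular to the members of this locus. Variable segments are repeated copies, so reads may be misplaced among them. The kappa and lambda loci held 2 and 0 sites and no member, and the T cell receptor loci 2 members in all, both in the alpha and delta locus. Outside the heavy chain locus 7.82% of all sites were members, and 67.6% of those members had adult HSC H3K4me1.

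Lymphoid priming genes held 25 members among 357 sites (7.0%), near the overall share, or 16 once members within 1 kb of each other were merged. Runx3, a factor of T and innate lymphoid cells, had 11 of its 45, with folds of 2.16 to 3.69, and 1 of them lay inside the gene. Adult HSC H3K4me1 lay over 6 of these 11 and fetal HSC H3K4me1 over 0. Dntt, the polymerase that adds bases to rearranging receptor genes, had 3 members between 1834 and 3721 bp from the gene. They shared 1 H3K4me1 peak of 19302 bp and had no HSC peak. Notch1, the receptor that drives T cell fate, had 3 members of folds 1.92 to 2.41, also without an HSC peak. None of the 3 lay within 10 kb of the gene.

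**Figure D4:**
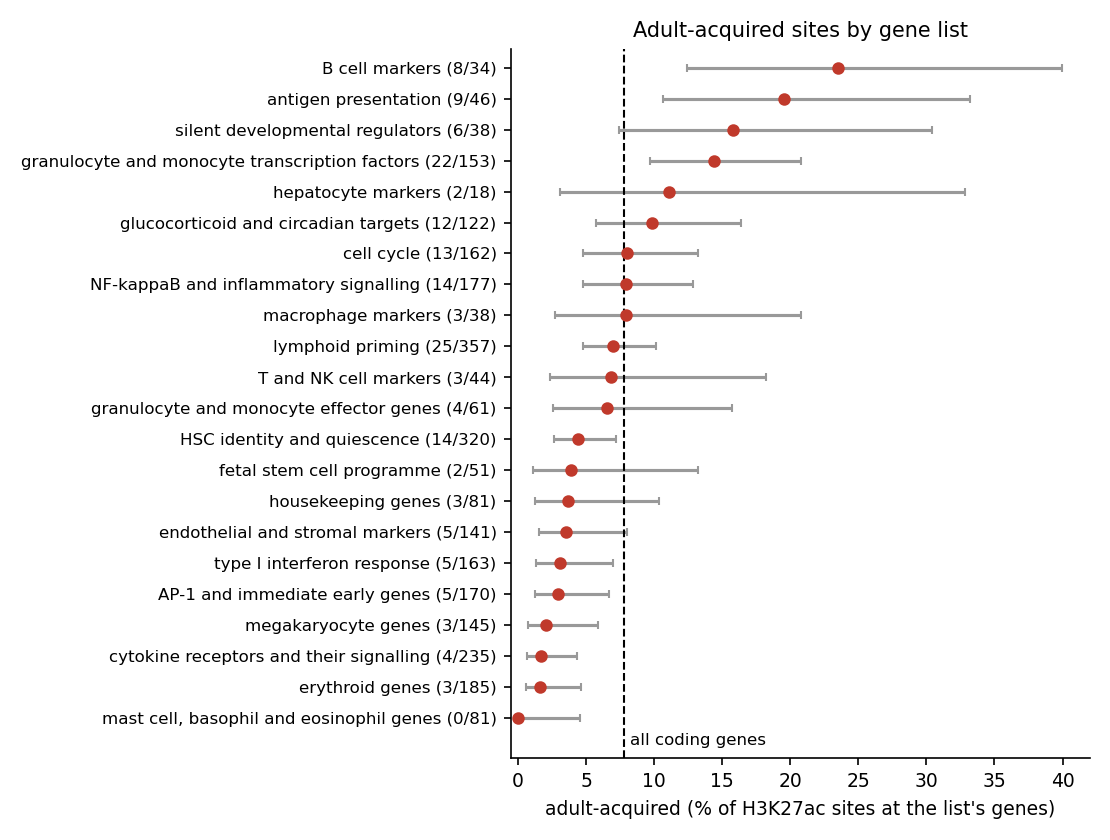
Share of the adult HPC H3K27ac sites at the genes of each list (%) that are adult-acquired, with 95% Wilson intervals over sites and members/sites in brackets; the dashed line is the 7.79% of all coding genes. Farthest to its right lie B cell markers (23.5%), antigen presentation (19.6%) and the reference list of silent developmental regulators (15.8%). Granulocyte and monocyte transcription factors (14.4%) and hepatocyte markers (11.1%) follow. Mast cell, basophil and eosinophil genes (0 of 81) and erythroid genes (1.62%) lie farthest to its left.

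Among stem cell genes 14 of 320 sites were members (4.38%, 2.62 to 7.21). Erg, an ETS factor that HSC need, had 6 of 42, with folds of 2.56 to 3.55. All 6 had adult HSC H3K4me1 and 3 had it in fetal HSC. Foxo3, a factor of quiescence, had 3 of 34, Prdm16 2 of 48, and Mecom 1 of 34. Of the fetal stem cell programme only Igf2bp2, an RNA-binding protein, had members, 2 of its 9 sites, with folds of 2.55 and 2.36 and no HSC peak.

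Cell cycle genes held 13 members among 162 sites (8.02%). Cdk6, the kinase that controls exit from quiescence, had 6 of 44, all inside the gene, with folds of 2.42 to 3.20. Adult HSC H3K4me1 lay over 2 of them and fetal HSC H3K4me1 over none. Ccne1, cyclin E1, had 2 of its 4 sites, with folds of 4.47 and 3.62, both with adult HSC H3K4me1. Neither lay within 10 kb of the gene, so their link to it rests on nearest-gene assignment alone.

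Inflammatory and NF-kappaB genes held 14 members among 177 sites (7.91%), at the overall share. Il1b, the cytokine interleukin 1 beta, had 3 of 5, the strongest 25391 bp from the gene at chr2:129337396-129339177 with fold 6.60 and no HSC peak. Socs3 had 3 of 11, and the one over its start (chr11:117968190-117970330), whose promoter sequence is shown above, also had fold 6.60. All 3 had adult HSC H3K4me1, of fold 4.40 to 6.82. Il1r1, the receptor of interleukin 1, had 3 of 20 without any HSC peak, and Tlr2 2 of 9. Genes of the glucocorticoid and circadian response held 12 members among 122 sites (9.84%, 5.72 to 16.4). Arntl had 3 of 8, all with adult HSC H3K4me1, and Sgk1, a kinase induced by glucocorticoids, had 2 of 9, with folds of 5.53 over its start and 5.46. Nr3c1, the glucocorticoid receptor, had 2 of 10. AP-1 and immediate early genes held 5 among 170 (2.94%), of which the start of Atf3 was the strongest, with fold 4.97.

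Erythroid genes held 3 members among 185 sites (1.62%, 0.553 to 4.66), 2 of them at Zfpm1, the partner of GATA1. Megakaryocyte genes held 3 among 145 (2.07%), with 1 of fold 4.68 inside Itga2b, the platelet integrin. Genes of cytokine receptors and their signalling held 4 among 235 (1.70%). Mast cell, basophil and eosinophil genes held 0 among 81, which allows up to 4.53% by the Wilson interval. Housekeeping genes held 3 among 81 (3.70%). Developmental regulators that are silent in blood held 6 among 38 (15.8%, 7.44 to 30.4), at the limb and heart factors Tbx3 and Tbx5 (2 each) and at Gsc and Pax1. Within 10 kb of the genes only 2 members of this list were left.

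Markers of other cells were read in the same list. Hepatocyte genes had 18 sites and 2 members, macrophage genes 38 and 3, T and NK cell genes 44 and 3, and endothelial and stromal genes 141 and 5, of which Cdh5, the cadherin of endothelium, held 3. Inside the bodies of defining genes, Cd3e, Ttr, C1qa, Adgre1, Timd4 and Alas2 had 0 adult H3K27ac sites. Of the B cell genes Cd79a, Ms4a1 and Pax5 had 1 each, of the T and NK cell genes Zap70 1, Lck 3 and Klrb1c 4, of the hepatocyte genes Alb and Apoa1 1 each and Afp 2, and of the endothelial genes Kdr 1, Cdh5 6 and Pecam1 20. Among progenitor genes Kit had 26 and Flt3 23, but Mpo and Csf3r only 2 each and Cd34 1, so these counts did not separate progenitors from other cells. Of the B cell list 13 of 14 genes had at least 1 site. Whether B-lineage cells within the HPC gate account for the members at B cell genes was not tested.

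Members gathered at some loci. Joining members no farther apart than the gap commonly used to stitch super-enhancers gave 3870 groups, of which 3139 held 1 member and 77 held 4 or more. Those 77 held 385 members. The largest, of 13, lay on chr17:31719474-31748401, with no coding gene nearer than Cryaa, a lens crystallin, and adult HSC H3K4me1 over 8 and fetal HSC H3K4me1 over 0. A group of 8 lay in 10559 bp at Col16a1, a collagen, where all 8 adult H3K27ac sites of the span were members with adult HSC H3K4me1.

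By gene, Aff3, a lymphoid nuclear protein of the AF4 family, had 14 members of 68 sites, and Cryaa 14 of 25. Mprip, a myosin phosphatase partner, had 13 of 32 and Zfp469 12 of 27. Foxn3, Myl10, Gse1 and Adgrd1 had 11 each, like Runx3. Large genes with many sites lead such a count, so the share says more. At Clmn, calmin, 9 of 12 sites were members, 8 of them with adult HSC H3K4me1 and 1 with fetal, and at Adgrd1, an adhesion receptor, 11 of 16. Sulf2, a heparan sulfatase, had 9 of 29, the strongest of fold 6.73 with adult HSC H3K4me1 of fold 7.04 and no fetal HSC peak. Nfatc1, a factor of T cell activation, had 14 of 53.

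**Figure D5:**
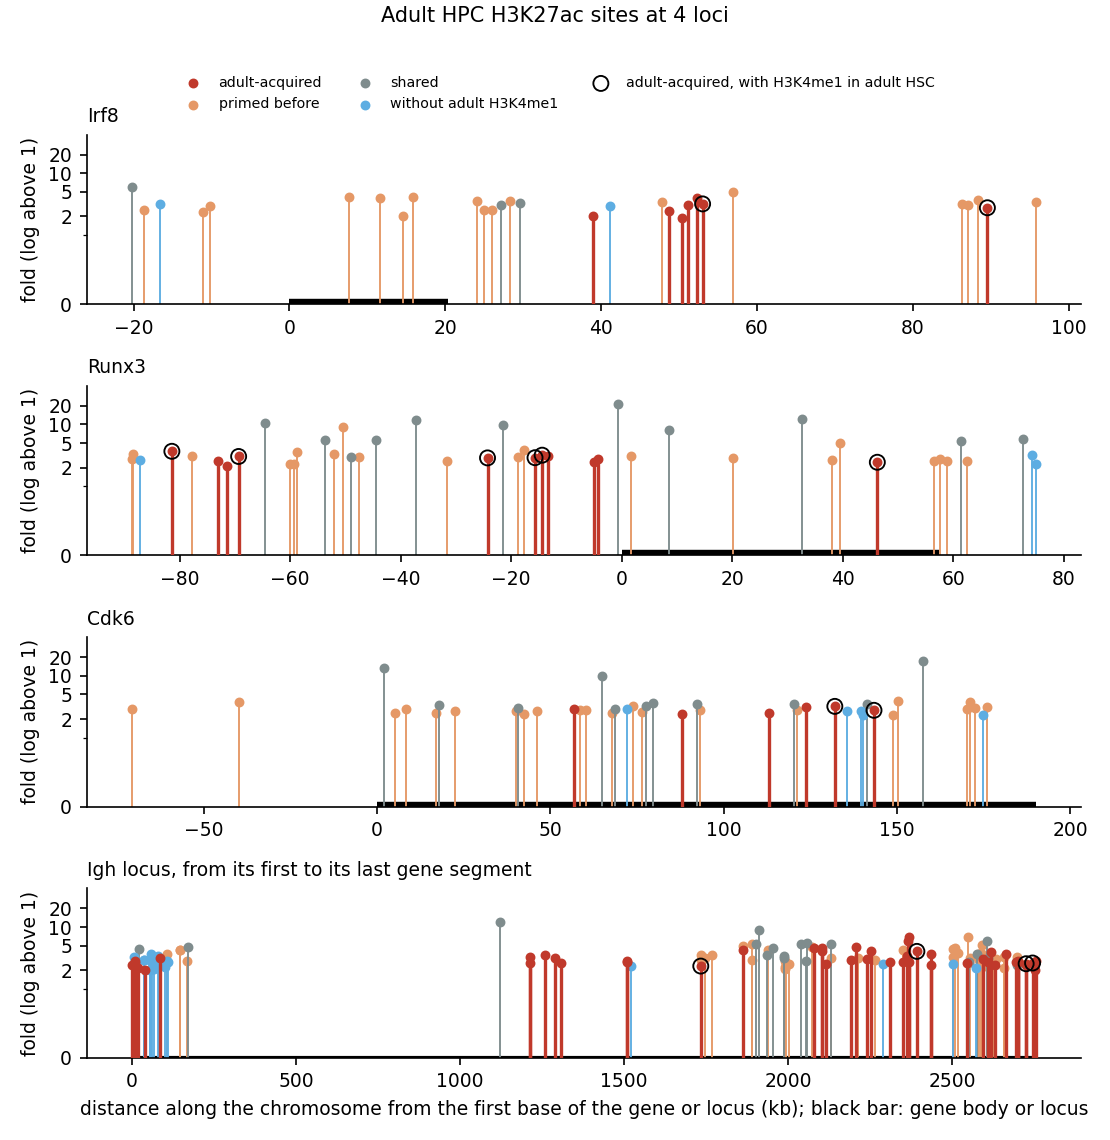
Adult HPC H3K27ac sites at Irf8, Runx3, Cdk6 and the immunoglobulin heavy chain locus (Igh), by distance along the chromosome from the first base of the gene or locus (kb) and fold over background on an axis that is linear to 1 and logarithmic above. Red marks adult-acquired sites, ringed where adult HSC had H3K4me1: 2 of 7 at Irf8, 6 of 11 at Runx3, 2 of 6 at Cdk6 and 4 of 47 at Igh.

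By chromosome the share of sites that were members ran from 4.72% on X to 9.88% on chromosome 8, leaving out Y with 0 of 5 sites. Chromosome 12 stood at 9.61%, and at 8.27% without the heavy chain locus. Of 1003 miRNA hairpins in RefSeq, 8 overlapped a member and 19 lay within 1 kb of one. One was Mir210, the miRNA induced by low oxygen, in a member of fold 2.48 with adult HSC H3K4me1 and none in fetal HSC. Mir7094-1 and Mir7094-2 lay in members of the heavy chain locus.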

How the data were processed

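ChIPmentation tags antibody-bound chromatin with Tn5 before sequencing. Per the submitters' processing notes, reads were aligned with Novoalign and peaks called with MACS2 on mm10 (GRCm38); versions, filter, threshold and the use of the 3 input libraries were not stated. The authors deposited 1 filtered peak list per group, pooled over its libraries, with a fold (ratio of ChIP to background) for each peak. The authors' −log10 p and −log10 q stand beside it, and the deposited score was not used. Values were compared only within a list. Read depth is unknown.

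Members were found by interval overlap (pandas 2.3.3, numpy 2.4.6). Shares carry 95% Wilson intervals and differences Newcombe intervals, for counting error only. On 2000 simulated sites of known class, 100.0% were recovered. The simulated peaks were built from those classes, so this checks the overlap code only, not peak calls. Coding genes, starts and promoter windows came from RefSeq tables of GRCm38.p6 (4 of 420 list names unmatched). The text names the 15 genes with most members, up to 3 genes of each list by member count, and 10 sites of at least 300 bp by −log10 p and 10 by fold; other genes were picked with their values known, the start table and the strongest sites leave out chromosome 18, and some genes are not reported here. The members and the 22 gene lists were chosen with earlier results of these data known.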

Additional observations from a re-analysis of the deposited data

How the results depend on the processing

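No alternative setting reversed the sign of the fetal or adult HSC difference between members and primed sites. Only these differences could be scored as reversed, and the compared classes differ by rule in fetal HPC H3K4me1. No paired analysis was possible because the libraries of each group were pooled into 1 peak list, so replicate numbers are attached to no value; no library could be left out for the same reason. Motifs at the summits of the members were planned and not run, since no genome sequence was used here. Requiring that no fetal HPC peak lay within 1 kb left 2118 members, with fetal HSC H3K4me1 at 13.3% and differences from primed sites of -63.1 points (fetal HSC) and -20.8 points (adult HSC). Counting a fetal peak only from 50% of the site gave 9130 members, shares of 38.2% (fetal HSC) and 75.9% (adult HSC) and differences of -52.4 and -17.2 points. With the strongest 20000 sites there were 287 members, shares of 19.5% and 87.5%, and an adult HSC difference of -10.8 points. Fetal HPC peaks with −log10 q of at least 5 gave shares of 21.2% and 69.2% and differences of -66.0 and -22.4 points. The adult HSC share and difference were 70.4% and -21.4 points with adult H3K4me1 over 50% of the site, 69.8% and -22.3 points with H3K27ac −log10 q of at least 5, and 70.2% and -22.2 points with the adult H3K27ac list at the fetal length. For sites of at least 300 bp the adult HSC share was 69.3%, and weighting by width gave a difference of -22.4 points. The fetal HSC list at the adult length gave a fetal HSC share of 7.34%. Near a gene start or end lay 12.51% of members at 500 bp and 19.5% at 2000 bp, against 15.2% at 1 kb. Overlap with the second K27 set was 0.342% (fetal) and 0.0402% (adult); within 1 kb it was 4.87% and 1.47%, and with its peaks of −log10 q of at least 5 it was 0.141% and 0%. Chosen after seeing the data, HSC peaks with −log10 q of at least 5 gave 8.83% (fetal HSC) and 58.2% (adult HSC). The 2844 members whose H3K4me1 peak met no fetal one gave 14.1% and 64.6%, and CpG-rich starts alone a fetal second K27 share of 33.0%, both also chosen after seeing the data. The causes were not tested. Assigning sites within 10 kb of a gene moved 9 of the 22 list counts and 24 of 71 gene counts, 16 of them to 0; counting inside gene bodies moved 17 and 38. Merging members within 1 kb moved 1 list count by over 1.5 times, lymphoid priming from 25 to 16. Peak threshold and depth limit all of these values.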
